A study of Mus musculus with 3 samples.

Results

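The claudins Cldn1, Cldn2, Cldn3, Cldn4, Cldn5, Cldn7, Cldn8, Cldn10, Cldn16 and Cldn19 were followed along the nephron and in the vessels of kidneys from 3 mice: Aoah-/- replicates 2 and 3, called Aoah-/- mouse 2 and 3 here, and WT replicate 3, called the WT mouse. All 3 mice had received folic acid (FA), which injures the tubule, and their kidneys were collected on day 14, with 1 single-cell RNA library per mouse. Aoah encodes acyloxyacyl hydrolase, an enzyme that inactivates bacterial lipopolysaccharide. The Aoah-/- mice lack it in every cell, not in the kidney alone, and the WT mice were littermates, with an age of 6 to 8 weeks in the labels of all 3 libraries. The 10 genes were chosen by name, as claudins known from nephron segments and endothelium, out of 33 claudin genes and 27998 genes in the files, and not by a threshold on their values. For each gene, unique molecular identifiers (UMIs, a count of captured RNA molecules) were summed over the cells of a class in each library and expressed per 1000000 UMIs of that class (CPM). Because the WT group had 1 mouse, no test between genotypes could be made, and no p-value is given.

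Claudins are membrane proteins of the tight junction, the seal between neighbouring epithelial or endothelial cells. Some claudins form pores that let chosen ions pass between the cells, while others close this path, so that the set of claudins in a tubule segment decides which ions it lets through. Cldn2 and Cldn10 form pores in the proximal tubule, Cldn16 and Cldn19 serve calcium and magnesium uptake in the thick ascending limb, and Cldn3, Cldn4, Cldn7 and Cldn8 are claudins of the distal nephron and collecting duct. Cldn5 seals endothelium, and Cldn1 is best known from the epidermis and from the parietal cells of the glomerulus.

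Some of these genes lie next to each other in the mouse genome (GRCm38, GENCODE M21 positions, matched by Ensembl identifier). Cldn4 (ENSMUSG00000047501, chromosome 5, 134945119 to 134946934, minus strand) and Cldn3 (ENSMUSG00000070473, chromosome 5, 134986214 to 134987472, plus strand) are neighbours with a gap of 39.3 kb, and each has a single exon. Cldn1 (ENSMUSG00000022512, chromosome 16, 26356642 to 26371841, minus strand) and Cldn16 (ENSMUSG00000038148, chromosome 16, 26463135 to 26482765, plus strand) are neighbours with a gap of 91.3 kb. Cldn7 (ENSMUSG00000018569) spans 69964779 to 69967885 of chromosome 11, and Cldn10 (ENSMUSG00000022132) spans 118787908 to 118875489 of chromosome 14, both on the plus strand. Cldn2 (ENSMUSG00000047230) lies on chromosome X at 139800828 to 139811386 and Cldn19 (ENSMUSG00000066058) on chromosome 4 at 119255414 to 119262438, both on the plus strand. The single-exon genes Cldn5 (ENSMUSG00000041378, chromosome 16, 18776847 to 18778262, plus strand) and Cldn8 (ENSMUSG00000050520, chromosome 16, 88560828 to 88563183, minus strand) complete the set.

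Sequences upstream of 4 of the genes are shown because these genes carry the comparisons that follow: Cldn3, Cldn4 and Cldn7 were higher in injured tubule cells, and Cldn10 is transcribed from separate starts in different segments, which counts from the 3′ end of the RNA cannot tell apart. Each line gives the 200 bases before a RefSeq start (GRCm38.p6), written 5′ to 3′ on the gene's strand, with matches on either strand to the searched motifs in capitals. The motifs were CAGGTG (the E-box of Snai1 and Snai2), TGANTCA (AP-1), GTTAAT (part of the HNF1 site), TATAAA (the TATA box) and AACCNGTT (grainyhead).
Cldn3, chr5:134986014-134986213, plus strand: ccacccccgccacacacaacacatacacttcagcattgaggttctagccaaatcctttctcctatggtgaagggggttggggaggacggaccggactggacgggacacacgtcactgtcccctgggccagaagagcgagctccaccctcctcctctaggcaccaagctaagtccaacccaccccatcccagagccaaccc
Cldn4, chr5:134946935-134947134, minus strand: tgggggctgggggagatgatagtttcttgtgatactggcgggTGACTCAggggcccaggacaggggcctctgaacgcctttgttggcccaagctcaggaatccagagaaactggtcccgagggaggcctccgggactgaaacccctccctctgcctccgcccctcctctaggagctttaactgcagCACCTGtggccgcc
Cldn7 first start, chr11:69964579-69964778, plus strand: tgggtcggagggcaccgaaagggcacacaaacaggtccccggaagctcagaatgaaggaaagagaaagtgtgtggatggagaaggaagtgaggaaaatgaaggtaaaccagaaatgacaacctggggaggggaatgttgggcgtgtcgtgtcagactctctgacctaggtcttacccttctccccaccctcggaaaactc
Cldn7 second start, chr11:69965221-69965420, plus strand: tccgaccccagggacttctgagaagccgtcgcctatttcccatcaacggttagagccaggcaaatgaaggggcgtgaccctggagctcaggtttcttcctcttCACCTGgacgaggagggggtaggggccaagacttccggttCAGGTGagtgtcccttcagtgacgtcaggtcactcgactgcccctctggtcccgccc
Cldn10 upstream start, chr14:118787671-118787870, plus strand: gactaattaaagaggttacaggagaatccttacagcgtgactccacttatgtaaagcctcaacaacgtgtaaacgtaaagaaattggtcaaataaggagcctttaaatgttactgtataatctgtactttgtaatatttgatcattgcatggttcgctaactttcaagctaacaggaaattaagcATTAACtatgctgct
Cldn10 downstream start, chr14:118854750-118854949, plus strand: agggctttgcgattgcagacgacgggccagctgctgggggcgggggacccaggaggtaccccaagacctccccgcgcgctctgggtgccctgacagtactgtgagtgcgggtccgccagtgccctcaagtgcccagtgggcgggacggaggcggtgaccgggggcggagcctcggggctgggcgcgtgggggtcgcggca

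CAGGTG stood before Cldn4 and, in 2 copies, before the second start of Cldn7, and TGANTCA stood before Cldn4. GTTAAT stood before the upstream start of Cldn10. Of 32851 windows of this length before mouse genes, 13.9% held CAGGTG, 5.48% held TGANTCA and 5.06% held GTTAAT. Among the 12 windows of the listed claudins, TATAAA (9.96% of windows) matched before Cldn2 and AACCNGTT (1.45%) before Cldn5. Cldn8 had no window among these and was not searched. These are matches of letters, and no factor's binding was measured.

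The libraries held 167222984, 161015021 and 158551992 UMIs in 25516, 24693 and 23072 barcodes. All sets of 3 values follow this order, with Aoah-/- mice 2 and 3 first and the WT mouse last. The filters kept 59262 cells. Aoah-/- mouse 3 stood apart: its lowest UMI total per barcode was 1672 against 500 in the others, and 18% of its kept cells lay in clusters without a name, against 2.65% and 2.83%. Of its 3538 such cells, 2328 lay in a tubular cluster led by Atp6v1g3, Klk1, S100g and Umod. The closest marker list of that cluster was that of the thick ascending limb. These cells entered no class, so the values of the distal classes in this mouse leave them out. Pairs of libraries shared between 171 and 176 barcodes. Aoah itself was at 6.75, 6.19 and 18.2 CPM over all kept cells. The part of Aoah that was deleted is not given in the sources used here, so the remaining UMIs in the Aoah-/- mice check the labels only in direction. Clustering without any claudin gene gave 12 nephron, urothelial and endothelial classes with between 77 and 9233 cells per library. Each was named "-like" from its markers, of which all 13 were highest in proximal tubule-like cells, 9 of 10 in thick ascending limb-like cells, 9 of 10 in principal cell-like cells and all 13 in endothelial cell-like cells. Fewer were highest in the distal convoluted tubule-like (5 of 9) and type A intercalated cell-like (6 of 10) classes. Of 15 injury markers, 5 were highest in injured proximal tubule-like, 4 in injured thick ascending limb-like and 3 in injured distal tubule-like cells. No cluster was named thin limb, podocyte or parietal epithelial cell, so claudin levels there are not given.

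The sets of claudins differed along the nephron. Proximal tubule-like cells carried Cldn2 and Cldn10. Thick ascending limb-like cells carried Cldn10, Cldn19 and Cldn16 together with Cldn7, Cldn8 and Cldn3. Cldn7 and Cldn8 were also found in all later segments, and Cldn4 was higher in principal and intercalated cell-like than in connecting tubule-like cells. The plot of levels by class shows this pattern in every library. The 10 genes gave between 92.2% and 98.9% of all claudin UMIs in the 11 tubular and urothelial classes. Each UMI stands for a captured molecule whatever the length of its transcript, so levels of different claudins can be set side by side, apart from differences in capture. The summed level of all claudins was 517 CPM in proximal tubule-like cells (SD 14.5, n = 3 libraries), 358 CPM in distal convoluted tubule-like, 748 CPM in principal cell-like and 1380 CPM in thick ascending limb-like cells (SD 107). Of the 10 genes, 7 had the same leading class in all 3 libraries. The exceptions were Cldn4, Cldn16 and Cldn19. For each gene, a class is called above background when its lowest library exceeded the highest value in lymphocyte-like and granulocyte-like cells. These cells should make no claudin of the tubule and are taken to show what free RNA in the droplets gives. Other cells outside the nephron held more of some genes. Cldn2 was at 130, 136 and 121 CPM in erythroid cell-like cells against 38.4, 46.7 and 33.9 CPM. Above background therefore means above lymphocyte-like and granulocyte-like cells only.

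**Figure D1:**
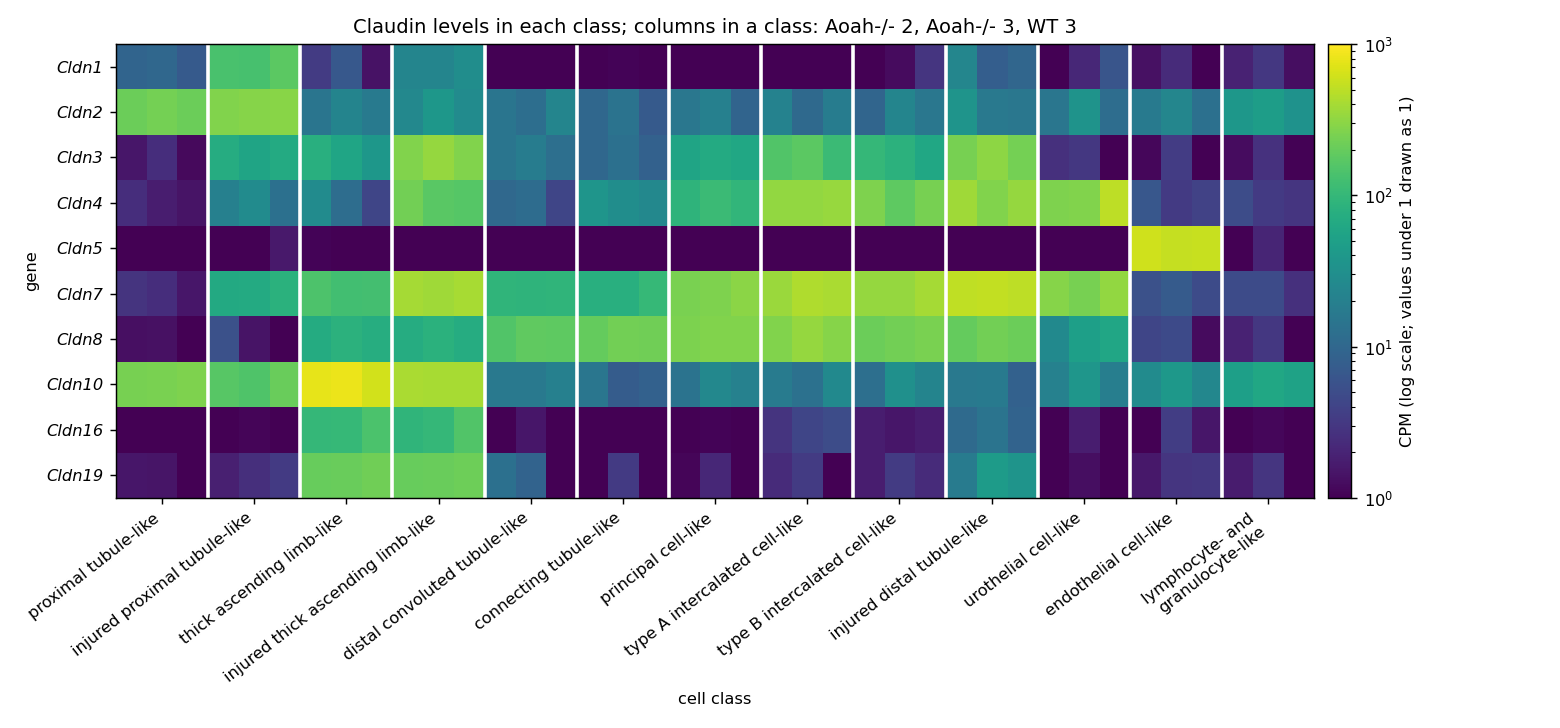
Heat map of the level of each of the 10 claudins (rows, CPM on a log colour scale, values under 1 drawn as 1) in 12 cell classes and in lymphocyte- and granulocyte-like cells, with a column for each of the 3 libraries. Cldn5 was bright in endothelial cell-like cells alone (545 to 613 CPM), and the brightest cells of the map are Cldn10 in thick ascending limb-like cells (617 to 818 CPM).

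Cldn2, the cation and water pore of the proximal tubule, was at 213, 235 and 210 CPM in proximal tubule-like cells. The injured proximal tubule-like cells had 268, 287 and 295 CPM, and no library of either class overlapped the other class. In the other 10 classes Cldn2 averaged between 10.3 and 30.7 CPM. That was not above the lymphocyte-like and granulocyte-like cells, so these values are read as background. Cldn10 was at 243, 252 and 261 CPM in proximal tubule-like cells, where it made up 48.7% of claudin UMIs beside 42.4% for Cldn2. Thinning to 1000 UMIs per cell left out 1844, 0 and 1745 proximal tubule-like cells with fewer UMIs. In the remaining cells of the class, a Cldn2 UMI was found in 16.9%, 18.7% and 16.4% and a Cldn10 UMI in 22.7%, 21.5% and 22.1%. The 2 genes met in the same thinned cell about as often as the product of their shares gives, with a ratio of 1.03, 1.07 and 0.94.

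Along the proximal tubule the 2 pores differed little. In S1/S2-like cells, the first stretch of the tubule, Cldn2 was at 245, 279 and 235 CPM, and in S3-like cells, the last stretch, it was at 200, 205 and 226 CPM. Cldn10 was at 227, 234 and 246 CPM in S1/S2-like and 254, 267 and 262 CPM in S3-like cells. The S1/S2 over S3 ratio was 1.2 for Cldn2 and 0.90 for Cldn10, and 0 of these 2 genes reached 2-fold. Across all genes tested between these classes, 2.28% were at least 2-fold higher and 2.3% at least 2-fold lower in S1/S2-like cells in all 3 libraries.

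Single clusters of proximal tubule-like cells varied more. A cluster of 1893 cells led by Akr1c21, Ttc36 and Cda, without a segment name and with a median mitochondrial share of 4.32%, had Cldn2 at 57.7, 61.7 and 59.0 CPM and Cldn10 at 303, 287 and 300.4 CPM. An S1/S2-like cluster of 2404 cells led by Slc5a12, with a median mitochondrial share of 13.1%, had Cldn2 at 322, 381 and 323 CPM and Cldn10 at 237, 253 and 279 CPM. Cldn2 did not overlap between these clusters, and Cldn2 and Cldn10 had opposite orders in them. The lowest Cldn10 was that of an S1/S2-like cluster of 865 cells led by the long RNA Gm26917, at 123, 128 and 143 CPM.

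Cldn10 was highest in thick ascending limb-like cells, at 768, 818 and 617 CPM, and made up 53.0% of their claudin UMIs. The injured thick ascending limb-like cells followed at 414, 406 and 409 CPM, then the proximal tubule-like and the injured proximal tubule-like cells (168, 149 and 205 CPM). None of these 4 classes overlapped its neighbour in this order. With at most 20% mitochondrial UMIs, injured thick ascending limb-like cells had the highest Cldn10 in all 3 libraries instead. In the remaining 8 classes Cldn10 averaged between 10.4 and 31.0 CPM and was not above lymphocyte-like and granulocyte-like cells.

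Cldn19, the partner of Cldn16 in the divalent cation pathway, was at 202, 204 and 224 CPM in thick ascending limb-like cells and 203, 208 and 217 CPM in the injured ones. The ranges of these classes overlapped, and injured distal tubule-like cells came next at 32.7 CPM (SD 13.8). Cldn16 was at 98.5, 101 and 142 CPM in thick ascending limb-like cells and 91.0, 99.2 and 154 CPM in the injured ones, again with overlapping ranges. No class outside the thick ascending limb averaged more than 32.7 CPM of Cldn19 or 11.4 CPM of Cldn16. The connecting tubule-like cells held no Cldn16 UMI in 595409, 935504 and 708901 UMIs, which allows up to 5.04, 3.21 and 4.23 CPM by counting error alone.

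Cldn8, which recruits partners into the collecting duct tight junction and blocks cations, led in type A intercalated cell-like cells (273, 334 and 286 CPM). Principal cell-like cells were next at 257 to 272 CPM, and the ranges did not overlap although the ratio of the means was 1.12. Type B intercalated cell-like (230 CPM, SD 18.4), connecting tubule-like (216 CPM, SD 18.5) and injured distal tubule-like cells (213 CPM, SD 14.8) overlapped each other. Distal convoluted tubule-like cells had 173 CPM (SD 16.6), where Cldn8 was the most abundant claudin at 48.3% of claudin UMIs. Its share was 57.0% in connecting tubule-like cells. Proximal tubule-like cells stood at 1.15 CPM, which was not above background.

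Cldn7, found in junctions and along lateral membranes of the distal nephron, was the most widespread and was above background in 10 of 12 classes. It was highest in injured distal tubule-like cells at 523, 533 and 503 CPM. Type A intercalated cell-like cells had 404 CPM (SD 44.2), type B 353 CPM (SD 36.8), principal cell-like 269 CPM (SD 26.7) and thick ascending limb-like 132 CPM (SD 10.7). Distal convoluted tubule-like (90.6 CPM, SD 1.94) and connecting tubule-like cells (86.0 CPM, SD 13.5) could not be told apart by their ranges. The lowest level was that of proximal tubule-like cells, at 2.29 CPM.

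Cldn4, a barrier and chloride-path claudin of the collecting duct, had no fixed leading class. Urothelial cell-like cells had 267, 271 and 499 CPM, type A intercalated cell-like cells 324, 324 and 347 CPM, and injured distal tubule-like cells 375, 272 and 333 CPM. The ranges of these 3 classes overlapped. Type B intercalated cell-like cells had 229 CPM (SD 42.4), principal cell-like cells 98.2 CPM (SD 11.2) and connecting tubule-like cells 30.8 CPM (SD 5.82). Cldn4 and Cldn7 together gave most claudin UMIs of urothelial cell-like cells, with 43.7% and 37.4%.

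Cldn3, a sealing claudin, led in injured thick ascending limb-like cells at 271, 337 and 267 CPM, with overlap of the injured distal tubule-like cells at 244, 306 and 239 CPM. Outside the injured classes it was highest in type A intercalated cell-like cells, at 153, 175 and 111 CPM. Type B cells had 99.4, 85.1 and 61.3 CPM, lower than type A cells of the same library in all 3 libraries. The type A over type B ratio was 1.79 for Cldn3 (mean log2 0.84, SD 0.21) and 1.47 for Cldn4 (mean log2 0.55, SD 0.27). Neither reached 2-fold in all 3 libraries, while 1.2% of 6006 genes were higher and 1.02% lower in type A cells by this rule.

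Cldn1 averaged 148 CPM in injured proximal tubule-like cells, with 137, 133 and 173 CPM. Injured thick ascending limb-like cells followed at 25.5 CPM (SD 3.79) and injured distal tubule-like cells at 13.7 CPM (SD 8.64). Proximal tubule-like cells had 9.24, 9.93 and 6.996 CPM. This range overlapped those of erythroid cell-like cells (3.42, 7.26 and 2.87 CPM) and fibroblast-like cells (4.69, 8.88 and 2.90 CPM). The other 8 classes were not above lymphocyte-like and granulocyte-like cells.

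Cldn5, the main claudin of endothelium, was at 613, 545 and 566 CPM in endothelial cell-like cells, and the next class averaged 1.09 CPM. No other class was above lymphocyte-like and granulocyte-like cells (0.44 to 2.03 CPM). Within endothelium the level depended on the cluster. Cells led by Mgp, Fbln5 and Sema3g, genes of arterial endothelium, had 2944, 2051 and 3170 CPM in 404 cells. Cells led by Tm4sf1 and Sox17 had 511, 421 and 428 CPM in 1010 cells. Those led by Fabp4 and Plvap, genes of fenestrated capillaries, had 47.0, 63.4 and 43.9 CPM in 1374 cells, and those led by Emcn, Plat and Ehd3, genes of glomerular endothelium, had 34.8, 53.6 and 51.2 CPM in 237 cells. The plot of clusters shows the capillary and the glomerular clusters overlapping, and the others apart. Cldn5 gave 70.7% of endothelial claudin UMIs. Cldn15, which is not among the 10 genes, gave most of the rest, at 142, 149 and 155 CPM.

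**Figure D2:**
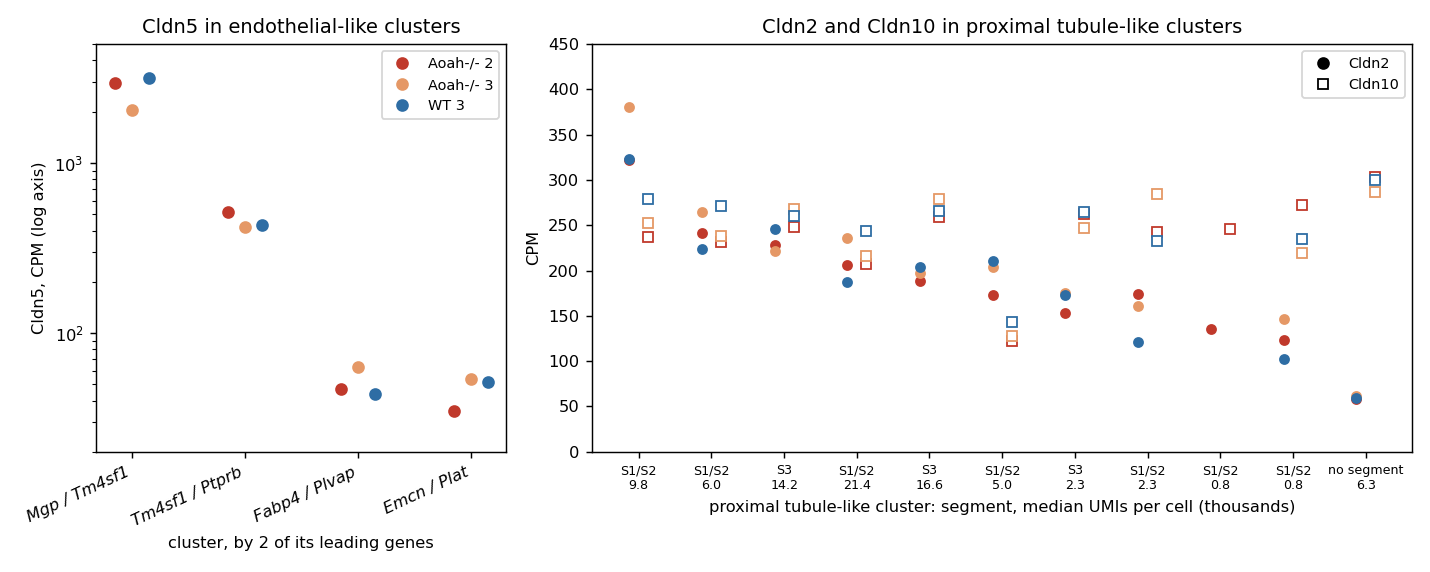
Left, Cldn5 level (CPM, log axis) in 4 endothelial cell-like clusters. Right, Cldn2 (filled circles) and Cldn10 (open squares) in proximal tubule-like clusters (CPM), labelled by segment and median UMIs per cell and ordered by Cldn2. Points are libraries, coloured by mouse. Cldn5 was at 2051 CPM or more in the cluster led by Mgp and below 64 CPM in those led by Fabp4 or Emcn. At the right edge, the cluster without a segment name had the lowest Cldn2 (57.7 to 61.7 CPM) beside Cldn10 of 287 to 303 CPM.

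Injured proximal tubule-like cells carried Cldn3, Cldn7 and Cldn1, which were low in their uninjured counterparts. Uninjured here means a class not named injured, and such classes still held some UMIs of injury markers. Cldn3 was at 71.3, 56.5 and 68.0 CPM against 1.51, 2.48 and 1.2 CPM, a ratio of 39.4 (mean log2 5.30, SD 0.69, n = 3 libraries). Cldn7 was at 66.2, 68.5 and 82.6 CPM against 2.85, 2.50 and 1.53 CPM, a ratio of 32.5 (mean log2 5.02, SD 0.64). In proximal tubule-like cells neither gene was above lymphocyte-like and granulocyte-like cells, so these are ratios to background. Cldn1 was 17.0-fold higher (mean log2 4.09, SD 0.48), with the levels given above. These 3 of the 5 claudins with enough UMIs were at least 2-fold higher in all 3 libraries, and 0 were lower. Since the 3 genes reached the minimum through the injured class alone, they could pass in the higher direction only, and nothing is read from the counts. Over all 5694 genes tested in this comparison, 12.7% were higher and 4.09% lower by the same rule. The pore claudins did not pass the rule: Cldn2 had a ratio of 1.29 (mean log2 0.37, SD 0.11) and Cldn10 a ratio of 0.68 (mean log2 -0.55, SD 0.21). Cldn4 did not reach the minimum of 20 CPM averaged over the pair of classes, with 20.4, 27.7 and 12.95 CPM in injured cells against 2.44, 1.72 and 1.45 CPM. Both classes come from clusters of the same cells, so these ratios are descriptions with no test. The summed immune markers were at 79.1, 86.0 and 21.05 CPM in injured proximal tubule-like cells and 81.8, 53.0 and 32.4 CPM in proximal tubule-like cells. The median mitochondrial share was 8.48% to 12.7% in the injured class against 21.7% to 22.4%, and its part in the ratios was not tested.

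Injured thick ascending limb-like cells were higher in Cldn4, Cldn3 and Cldn7. Cldn4 was at 232, 169 and 160 CPM against 27.9, 11.8 and 4.25 CPM, a ratio of 16.5 that ranged widely between libraries (mean log2 4.04, SD 1.11). Cldn4 in the uninjured class was not above lymphocyte-like and granulocyte-like cells by the rule used here, since its WT library was at 4.25 CPM and those cells at up to 5.03 CPM. Cldn3 was at 271, 337 and 267 CPM against 77.4, 58.3 and 38.2 CPM, a 5.21-fold ratio (mean log2 2.38, SD 0.52). Cldn7 was at 390, 373 and 400 CPM against 144, 125 and 126 CPM, a 2.95-fold ratio (mean log2 1.56, SD 0.12). Of 8 claudins with enough UMIs, these 3 passed 2-fold in all 3 libraries and 0 were lower, against 5.91% of 5961 genes higher and 2.65% lower. Cldn4 reached the minimum through the injured class and could pass in the higher direction only, so nothing is read from these counts. Cldn16 and Cldn19 had ratios near 1, with a mean log2 ratio of -0.01 for both. Cldn10 had a ratio of 0.56 (mean log2 -0.83, SD 0.21), which did not reach 2-fold in all 3 libraries. With at most 20% mitochondrial UMIs, Cldn10 was instead higher in the injured class in all 3 libraries. The median mitochondrial share was 9.49%, 14.4% and 12.4% in the injured class against 26.5%, 25.8% and 20.9%. Its part in the ratios was not tested. Cldn1 was at 23.2, 23.4 and 29.8 CPM in the injured class against 3.36, 6.72 and 1.42 CPM, but did not reach the minimum of 20 CPM. Cldn3 and Cldn7 were thus higher in both injured classes. Cldn1 passed the rule in the proximal class and Cldn4 in the ascending limb class, and each missed the minimum in the other. Whether the classes differed in this was not tested.

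**Figure D3:**
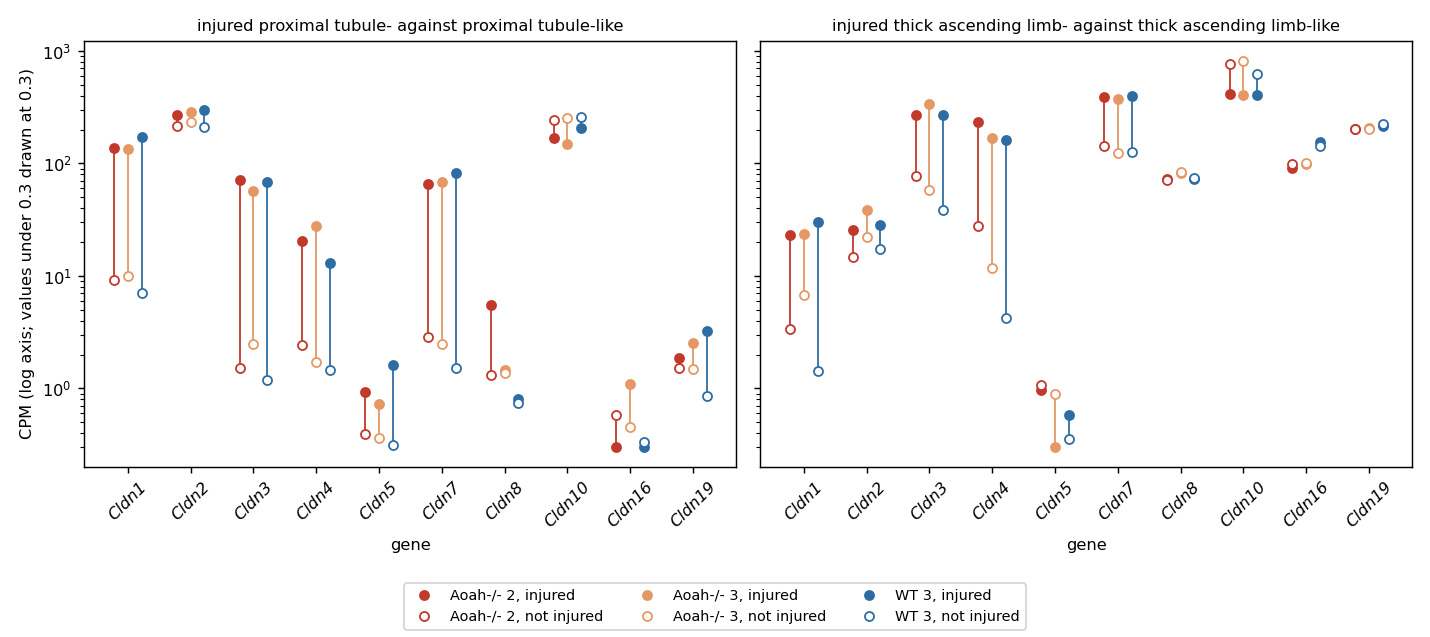
Level of each claudin (CPM, log axis, values under 0.3 drawn at 0.3) in injured (filled) and uninjured (open) proximal tubule-like cells, left, and thick ascending limb-like cells, right, with a line joining the values of each library. Cldn3 and Cldn7 were higher in both injured classes in all 3 libraries, while Cldn19 in the thick ascending limb had overlapping points of 203 to 217 CPM and 202 to 224 CPM.

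Other tight junction genes were read from lists. Of 14 tight junction partners tested in injured proximal tubule-like cells, 6 were higher and 0 lower, beside 12.7% and 4.09% of all genes. Among these, Epcam, which binds and stabilizes Cldn7, was 38.5-fold higher, Lsr of tricellular junctions 4.51-fold, Cxadr 3.77-fold, the scaffold Tjp1 3.18-fold and the adhesion molecule F11r 2.89-fold. Among 9 claudin regulators, Spint2, a protease inhibitor that protects Cldn7, was 4.23-fold and the kinase Wnk1 2.28-fold higher. In injured thick ascending limb-like cells, F11r (2.22-fold) and Lsr (2.31-fold) were higher of 20 partners tested and Esam was lower with a ratio of 0.27, beside 5.91% and 2.65% of all genes. There, 3 of 11 regulators were lower: Wnk1 (ratio 0.25), Wnk4 (0.30) and the calcium-sensing receptor Casr (0.39), which restrains paracellular calcium uptake in this segment. The median log2 ratio of the partners was 0.86 in the proximal and 0.39 in the ascending limb comparison. Genes that reached the minimum through a single class could pass in a single direction only. Nothing is therefore read from the counts or medians of these 2 comparisons. Over all classes, 25 of 25 partners and 15 of 15 regulators in the files reached 20 CPM somewhere, against 3 of 19 other claudins. Cldn15 led these in endothelial cell-like, Cldn23 in urothelial cell-like (32.1 CPM) and Cldn12 in injured proximal tubule-like cells (26.9 CPM). The most abundant partners were Epcam (685 CPM in injured distal tubule-like cells), Esam (510 CPM in endothelial cell-like cells), Cgnl1 (396 CPM in thick ascending limb-like cells) and Tjp1 (296 CPM in endothelial cell-like cells). The most abundant regulators were Wnk1 (3603 CPM in connecting tubule-like cells), Spint2 (615 CPM in injured distal tubule-like cells), Wnk4 (398 CPM in distal convoluted tubule-like cells) and Tmprss2 (245 CPM in urothelial cell-like cells). Esam was a marker used to name the endothelial class, and Wnk4 one for the distal convoluted tubule class. Their lead in those classes was therefore favoured by the naming.

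Within the thick ascending limb, cells holding both Cldn16 and Cldn10 were fewer than the product of the genes' shares gives in all 3 libraries. Thinning to 1000 UMIs per cell left out 206, 0 and 72 cells with fewer UMIs. Of the remaining 787, 640 and 412 cells, 12, 18 and 15 held both genes, where 32.4, 28.2 and 21.8 were given by the product of the shares. The ratio was 0.371, 0.638 and 0.687, with a mean of 0.565 (SD 0.170, n = 3 libraries). Of cells with a Cldn16 UMI, 18.5% (exact 95% interval 9.92 to 30.03), 28.1% (17.6 to 40.8) and 24.2% (14.2 to 36.7) also held a Cldn10 UMI. Of cells without one, 52.6%, 45.8% and 37.1% did. In this draw the intervals of the cells with and without Cldn16 did not overlap in Aoah-/- mice 2 and 3 but did in the WT mouse (32.1 to 42.4 without Cldn16). Without thinning they did not overlap in the WT mouse either, at 32.2 to 46.8 with Cldn16 and 55.7 to 67.0 without. The intervals cover counting error among cells only, so no difference between the mice is read from them. The mean ratio over 20 other draws of the thinning was 0.484. Without thinning, and with all cells of the class, the mean ratio was 0.803, which remained below 1 in all 3 libraries. Cldn16 and Cldn19 had thinned ratios of 1.34, 1.17 and 0.83, on both sides of 1. Without thinning their ratios were 1.34, 1.18 and 1.31, with a mean of 1.28. The mean ratio of Cldn2 and Cldn10 in proximal tubule-like cells also rose, from 1.01 with thinning to 1.29 without. That of Cldn16 and Cldn3 in thick ascending limb-like cells fell, from 1.36 to 1.09. Nothing is therefore read from the ratio of Cldn16 and Cldn19 without thinning.

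**Figure D4:**
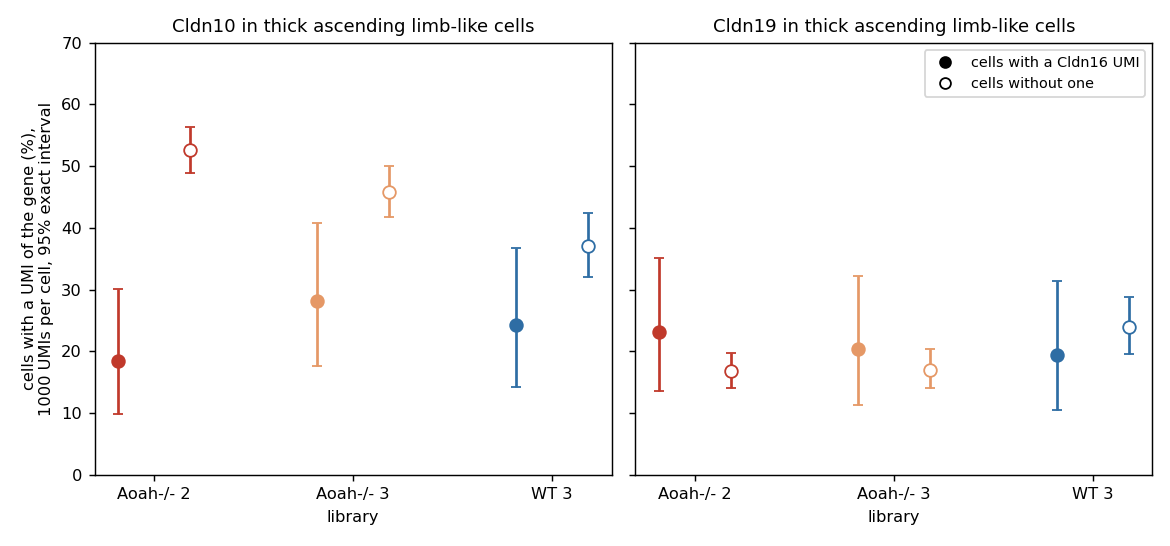
Share of thick ascending limb-like cells with a UMI of Cldn10 (left) or Cldn19 (right), in %, among cells with a Cldn16 UMI (filled) and without one (open), after thinning each cell to 1000 UMIs. Cells with fewer UMIs were left out. Bars are exact 95% intervals. Cldn10 was found in 18.5% to 28.1% of the cells with Cldn16 and in 37.1% to 52.6% of those without, while the intervals for Cldn19 overlapped in each library.

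The clusters of the thick ascending limb had opposite orders of these genes. A cluster of 1554 cells led by Umod, Slc12a1 and Egf had Cldn16 at 149, 143 and 185 CPM and Cldn10 at 489, 593 and 493 CPM. A cluster of 563 cells was also led by Slc12a1 and Umod, with Egfl6 and Nccrp1 further down its leading genes. It had Cldn16 at 30.6, 42.5 and 45.5 CPM and Cldn10 at 1140, 1127 and 892 CPM. Cldn19 differed less, at 170, 168 and 227 CPM against 245, 254 and 216 CPM. The clusters were thinned in other draws than the whole class, so their cells do not add up to those given above. Within the larger cluster the thinned Cldn16 and Cldn10 ratio was 0.489, 0.414 and 0.529. In the smaller cluster it was 0.448, 0.958 and 0.735, with no more than 4 cells holding both genes in a library. In injured thick ascending limb-like cells the ratio was 0.913, 0.928 and 2.57, from 6, 11 and 9 such cells, so no direction could be read there.

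Cells with Cldn16 and no Cldn10 also differed from cells with Cldn10 and no Cldn16 in another gene, chosen after its values were seen. Kcnj10, a basolateral potassium channel, was at 134, 164 and 141 CPM in the Cldn16 cells and 30.3, 31.7 and 35.5 CPM in the Cldn10 cells. Cldn3 had the opposite order, at 18.9, 26.1 and 13.4 CPM in the Cldn16 cells and 106, 70.8 and 56.4 CPM in the Cldn10 cells. Cldn19 was at 204, 232 and 261 CPM and 207, 206 and 203 CPM, with overlap. The cell groups were 114, 93 and 109 cells against 442, 329 and 162 cells.

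Between genotypes, 4 claudin levels differed by a fixed fold. A claudin was called higher or lower in a class when both Aoah-/- libraries were at least 1.5-fold from the WT library. The pair also needed a mean of at least 20 CPM over the 3 libraries and at least 60 UMIs in all. Of 120 pairs of gene and class, 54 had enough UMIs, of which 2 were higher and 2 lower in the Aoah-/- mice. Over all 67799 pairs of gene and class, 1.49% were higher and 1.34% lower. A pair that reached the minimum through 1 genotype alone could be called in 1 direction only. Such a pair was Cldn4 in injured proximal tubule-like cells, with 12.95 CPM in the WT mouse. Nothing is therefore read from these counts.

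Cldn4 in urothelial cell-like cells was at 267 CPM (exact Poisson 95% interval 256 to 278) and 271 CPM (250.1 to 293) in the Aoah-/- mice and 499 CPM (471 to 529) in the WT mouse. Both Aoah-/- libraries lay below the WT library, with a mean log2 ratio of -0.89 (SD 0.02 between the 2 Aoah-/- libraries), a call that 2.37% of genes in this class shared. After thinning, 23.0% and 19.9% of urothelial cell-like cells of the Aoah-/- mice held a Cldn4 UMI against 39.1% in the WT mouse. Injury markers summed to 5304, 5809 and 9367 CPM in this class and immune markers to 275, 200.4 and 77.9 CPM, and their part in the difference was not tested.

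Cldn16 in injured thick ascending limb-like cells was at 91.0 CPM (80.7 to 102) and 99.2 CPM (90.0 to 109) against 154 CPM (136 to 174) in the WT mouse. The mean log2 ratio was -0.69 (SD 0.09), with a background of 0.734% of genes lower in this class. In thick ascending limb-like cells not named injured, Cldn16 had the same order at 98.5, 101 and 142 CPM but did not pass 1.5-fold. Injury markers in the injured class summed to 33596, 32438 and 42832 CPM and immune markers to 92.6, 94.99 and 41.0 CPM, and their part was not tested.

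Cldn3 in thick ascending limb-like cells was at 77.4 CPM (70.8 to 84.4) and 58.3 CPM (52.2 to 65.0) against 38.2 CPM (31.3 to 46.1), a mean log2 ratio of 0.83 (SD 0.29). In this class 1.85% of genes were higher. Injury markers summed to 5581, 6030 and 4168 CPM and immune markers to 95.6, 80.2 and 50.2 CPM, and the median mitochondrial share was 26.5%, 25.8% and 20.9%. Their part in the difference was not tested. The smaller cluster, with Egfl6 among its leading genes, had the higher Cldn3 and held 26.3%, 34.8% and 16.3% of the class. Its leading injury markers had a mean log2 level over the median cluster of 3.18, against 1.94 in the larger cluster. The part of this in the difference was not tested. Within that cluster Cldn3 was at 147, 94.7 and 68.3 CPM, and within the larger cluster it was at 24.8, 32.0 and 24.6 CPM. Both Aoah-/- libraries were above the WT library in the smaller cluster, and in the larger cluster Aoah-/- mouse 2 and the WT mouse were alike.

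Cldn4 in injured proximal tubule-like cells was at 20.4 CPM (14.8 to 27.3) and 27.7 CPM (21.8 to 34.7) against 12.95 CPM (7.40 to 21.03), from 44, 76 and 16 UMIs. The mean log2 ratio was 0.89 (SD 0.31), while 1.54% of genes in this class were higher. With its WT library under 20 CPM, this pair could be called higher only. The intervals of the first Aoah-/- library and the WT library overlapped, so a difference was not detectable there at this depth. Of the 4 calls, that of Cldn4 in urothelial cell-like cells held in all 13 other settings tried. Cldn16 in injured thick ascending limb-like cells held in 8 of 13, Cldn3 in thick ascending limb-like cells in 5 of 13 and Cldn4 in injured proximal tubule-like cells in 3 of 9. These counts include the settings that left out an Aoah-/- library or the minimum of 20 CPM. Such settings cannot undo the fold of a call already made, so holding there says nothing about the stability of the fold. A left-out library can still undo a call through the minimum. Cldn4 in injured proximal tubule-like cells was lost in this way without Aoah-/- replicate 3. Its 3 settings that held include those without replicate 2 and without the minimum.

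**Figure D5:**
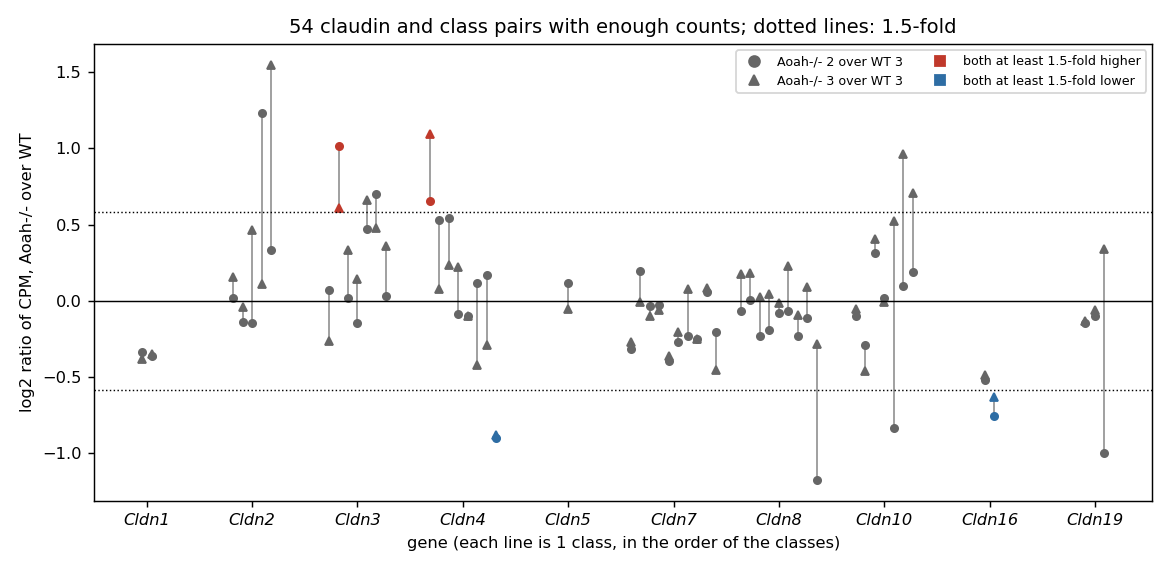
Log2 ratio of Aoah-/- mouse 2 (circles) and mouse 3 (triangles) over the WT mouse for 54 pairs of claudin and class, each joined by a line, with dotted lines at 1.5-fold. The 2 pairs above in both libraries are red, the 2 below are blue, and the blue pair of Cldn4, in urothelial cell-like cells, has a mean of -0.89.

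Among the listed tight junction partners and regulators, few genes passed the 1.5-fold rule in any class. Cxadr in connecting tubule-like cells was at 33.6, 43.8 and 15.5 CPM (log2 1.32), where 2.88% of genes were higher, and in thick ascending limb-like cells Marveld2, the tricellular protein tricellulin, was at 26.6, 24.7 and 14.5 CPM (log2 0.82) and Magi3 at 38.2, 35.9 and 23.4 CPM (log2 0.66). The higher regulators were Casr in type B intercalated cell-like cells (log2 0.82, with 1.24% of genes higher), Wnk4 in urothelial cell-like cells (log2 0.82, with 1.81%) and Spint2 in endothelial cell-like cells (log2 0.77, with 1.77%). Trpv4, a cation channel, was lower in endothelial cell-like cells at 38.9, 36.5 and 60.9 CPM (log2 -0.69), where 0.579% of genes were lower.

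Over 36 points, the 12 classes in each of 3 libraries, 9113 genes were ranked by how closely their log2 level followed that of each claudin. The points share libraries and classes, so the Pearson r is a description. Slc12a1 and Krt18, named below, were themselves markers used to name thick ascending limb-like and injured classes. Their high r was therefore favoured by the naming. Cldn16 was followed by Sim2 (r 0.92), Slc12a1, the sodium, potassium and chloride carrier of the thick ascending limb (0.90), and Irx2 (0.90). Cldn19 was followed by Defb42 (0.94), Gm12927 (0.91) and again Sim2 (0.88). Cldn10 was followed by Slc5a1, a glucose carrier (0.92), Lzts3 (0.91) and Slc16a12 (0.85). Cldn8 was followed by Tspan1, Scnn1a, a subunit of the epithelial sodium channel, and Ipcef1 (all 0.97). Cldn7 was followed by Epcam (0.97), Mboat1 (0.97) and Sh2d4a (0.96), and Cldn4 by the keratin Krt18 (0.96), Dsc2 (0.90) and Rbbp7 (0.89). Cldn3 had Chka (0.91), Scx (0.90) and Bag2 (0.90), Cldn2 had Gpx1, Folr1 and Tkfc (all 0.96), Cldn1 had Il5ra (0.94), Tmem176b (0.92) and Tmem176a (0.92), and Cldn5 had Galnt15, Thbs2 and Bcl6b (all 0.99). Between the claudins themselves r was 0.94 for Cldn16 and Cldn19, 0.87 for Cldn4 and Cldn7, 0.80 for Cldn7 and Cldn8, and -0.75 for Cldn2 and Cldn8.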

How the data were processed

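Perfused kidneys were digested with collagenase IV and DNase, strained at 40 µm and cleared of erythrocytes. Per the labels, 10x Chromium 3' libraries were processed with Cell Ranger 3.1.0 and STAR on mm10 and with Seurat 4.2.0, while the matrix headers name Cell Ranger 6.1.2. The values deposited by the authors are raw UMI counts per gene and barcode, without normalization. Claudins and lists were chosen with earlier results of these data known, and the naming rule for clusters was written after clusters had been seen.

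Barcodes under 200 detected genes or above 50% mitochondrial UMIs were dropped. Counts scaled to 10000 per cell were log-transformed and clustered with custom code (2000 variable genes, 50 components, 15 neighbours). Clusters came from the Leiden method of igraph 0.11.9 on a graph of shared neighbours, at resolution 1. Tubular clusters were clustered again with 30 components. Cldn, Aoah, Cd74 and MHC class II genes (47) were left out. Doublets were kept, since Scrublet in scanpy 1.11.5 called 458, 0 and 229 cells and so did not work in Aoah-/- mouse 3. Clusters were named from marker lists.

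UMIs were summed per library and class. Exact Poisson (CPM) and Clopper-Pearson (shares) 95% intervals from scipy 1.17.1 cover counting error only. Folds were taken from sums, with minimums of 20 CPM and 60 UMIs. Each set of cells was thinned to 1000 UMIs in its own seeded draw, and cells with fewer UMIs were left out. The scripts were tested on simulated data. Genes named were the 10 claudins, per claudin the 3 genes most alike, and from each list up to 4 of the highest level and up to 4 past the 1.5-fold rule. Named as well were partners and regulators that passed the 2-fold rule in the injured comparisons. Kcnj10 was on no list and was chosen after its values were seen. A further list of tubule genes found free in droplets (Kap at 42511 CPM in proximal tubule-like, Spp1 at 26423 in injured thick ascending limb-like, Umod at 12273 in thick ascending limb-like, Gpx3 at 10888 in proximal tubule-like cells) was read only for its levels. Kap, Spp1 and Umod were also markers used to name classes. The values of 1 listed gene are not reported here. Alternatives changed the filters, clustering, thinning, minimums and libraries.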

Additional observations from a re-analysis of the deposited data

Results flagged for a closer look

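Cldn4 had opposite directions in Aoah-/- and WT mice in 2 classes: both Aoah-/- libraries were above the WT library in injured proximal tubule-like cells and below it in urothelial cell-like cells, and the log2 ratios differed by 1.79. The difference between the classes was not tested, and the first of these directions rested on 16 UMIs in the WT mouse.

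Cldn1 was high in 148 unnamed cells led by Mgp and Tagln, which entered no comparison. It averaged 176 CPM there, with 157 CPM (exact Poisson 95% interval 117 to 206), 198 CPM (162 to 240.3) and 172 CPM (123 to 234) in the 3 libraries. A count of 0 would allow up to 9.06, 5.72 and 12.9 CPM (3 counts per library).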

How the results depend on the processing

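No paired analysis was possible because the Aoah-/- replicates 2 and 3 and the WT replicate 3 share only 1 number and no test was made. The number of claudins with the same leading class in all 3 libraries was 5 to 9 over 12 settings (7 as reported). Which class led also changed. Among settings that had the class, the reported one led in 12 of 12 for Cldn5, 11 of 12 for Cldn10 and 10 of 12 for Cldn3. It led in 8 of 11 for Cldn7 and Cldn8 and in 7 of 8 for Cldn1 and Cldn2. These tallies, and that of the injured comparison below, include the settings that left out an Aoah-/- library. Such settings cannot undo a leading class or a fold shared by all 3 libraries, so holding there says nothing about stability. The 3 claudins higher in injured proximal tubule-like cells were 2 or 3 over 8 settings (Cldn1 was lost under a gate on each cell's own markers) and 0 were lower in all of them; with at most 20% mitochondrial UMIs, 30 components, each library alone or immune-marked cells left out, no cells or fewer than 20 in a library were named as this class, and no value was made. The Cldn16 and Cldn10 ratio (0.565) stayed between 0.400 and 0.803 over 14 settings, with 0.768 at 20% mitochondrial UMIs and 0.803 without thinning. The Cldn16 and Cldn19 ratio (1.11) became 0.913 with 30 components, 0.970 with each library alone and 2.31 at 20% mitochondrial UMIs. The number of higher genotype pairs, 2 as reported, was 0 with at least 500 genes or resolution 2. It was 11 without the minimum of 20 CPM, and 1 without the top 10% of doublet scores or with immune-marked cells left out. It was also 1 with cells of at least 1672 UMIs only (added after seeing the data). These counts do not follow the same pairs. The single pair was Cldn3 in type A intercalated cell-like cells without the top doublet scores. With immune-marked cells left out it was Cldn3 in principal cell-like cells. Neither was a reported pair. With 30 components, each library alone or the gate on own markers, none of the higher pairs was a reported one. The number of lower pairs, 2 as reported, was 1 with each library alone and 4 without the minimum of 20 CPM. Without 1 Aoah-/- library the higher pairs were 3 to 6 and the lower 2 to 5: without replicate 2, 6 were higher, and without replicate 3, 5 were lower. The causes were not tested. The single WT library limits every genotype value.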

Other observations

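The unnamed cells led by Mgp and Tagln, with Akap12 and Ncam1 also among their leading genes, carried Cldn2 as well, at 127, 91.5 and 176 CPM. No class name was given to them, and parietal epithelial cell markers were the closest list.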
